A study of Callithrix jacchus with 3 samples.

Results

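Axon guidance genes encode the ligands and receptors by which growing axons and migrating cells are steered. The count files held 66 genes whose symbols belong to the ephrin, Eph, semaphorin, plexin, neuropilin, Slit, Robo, netrin, UNC5 and DCC names, out of 30811 genes, of which 12660 had a symbol. They were taken by symbol alone: any name that begins EPHA, EPHB, EFNA, EFNB, SEMA, PLXN, NTN or UNC5, or ROBO or SLIT with a number, plus NRP1, NRP2 and DCC. The UNC5 prefix also took UNC50 and UNC5CL. UNC50 encodes an unrelated membrane protein, and UNC5CL encodes a signalling protein that resembles the inner part of UNC5 receptors. The other 64 genes are guidance genes, 31 ligands and 33 receptors. A further 7 family members (EFNA2, EFNA4, EFNB1, EFNB3, NTN1, PLXND1 and SEMA4G) matched no row and were not analysed here.

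RNA was sequenced from 3 libraries of EPSC-like cells, made in attempts at converting embryonic stem cells of the common marmoset (Callithrix jacchus) to an extended pluripotent state. Cells of that kind, in mouse and human, have been credited with forming both embryonic and extraembryonic tissues. All 3 libraries belong to 1 group with no parental or control cells, the titles differ only in the replicate number, and they may come from 1 line. No medium, passage or genotype is given in the sources used here, and whether separate cultures were used is not stated. The spread between libraries, which the SDs and the p-values against 1 CPM over all 3 libraries measure, may thus be technical. P-values for 1 library against another cover counting error only.

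Guidance families work by contact or through secreted ligands. Eph receptors are tyrosine kinases that bind ephrins on neighbouring cells, and both sides signal. Semaphorins act through plexins, which restrain small GTPases, and most of the secreted class needs neuropilins as partners. Slits are secreted proteins that act through Robo receptors, and netrins attract through DCC and repel through UNC5 receptors. The same families sort cells at tissue boundaries and shape epithelia and vessels, so they are not restricted to neurons.

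Levels are given in CPM, counts per 1000000 counts after TMM scaling. Gene lengths were not used, so CPM says how many reads a gene drew, and orders of CPM between genes are orders of reads, not of transcripts. The totals were 52327369, 55224475 and 40593244 counts in replicates 1, 2 and 3. A gene with 0 counts could still stand at up to 0.0573, 0.0546 and 0.0736 CPM in these libraries (3 counts, counting error only). Replicate 3 stood apart: over 13701 genes averaging 50 counts or more, its log2 ratios to replicate 1 and to replicate 2 had SDs of 0.56 and 0.56, while those between replicates 1 and 2 had an SD of 0.16. Pluripotency markers were expressed, but without control cells they cannot tell EPSC-like cells from other pluripotent cells. All 8 that had a row were above 1 CPM, as were 78.3% of all tested genes with a symbol. POU5F1 stood at 1044 ± 122 CPM and NANOG at 330.5 ± 17.2 CPM (SD, n = 3). Of 9 neuron markers, 7 were above 1 CPM as well, led by the intermediate filament gene INA at 252 ± 20.2 CPM, whereas SYT1 of synaptic vesicles was below it at 0.464 ± 0.0847 CPM.

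EPSC-like cells expressed most guidance genes. Of the 66 genes, 51 (77.3%) were called above 1 CPM, 7 were called below it, and 8 could be placed on neither side. A call needed an adjusted p under 0.05 (quasi-likelihood test of edgeR, adjusted by Benjamini-Hochberg over all genes tested). Across the 23432 genes tested, 56.0% were above 1 CPM and 37.8% below. Among the 12174 tested genes that have a symbol, as all 66 do, these shares were 78.3% and 16.1%, so the share of guidance genes above the level was close to that background. Their median level was 2.66 on the log2 scale relative to 1 CPM, against 4.12 for all tested genes with a symbol and 1.70 for all tested genes. Without replicate 3, 54 were above and 10 below. Every one of the 66 had at least 1 count and was tested. Of the 64 guidance genes, 50 were above 1 CPM, 6 below and 8 not distinguished, and 26 had a mean of at least 10 CPM. UNC50 was above 1 CPM at 31.3, 31.4 and 34.7 CPM in replicates 1, 2 and 3, and UNC5CL, with 4, 6 and 0 counts, was below it.

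**Figure D1:**
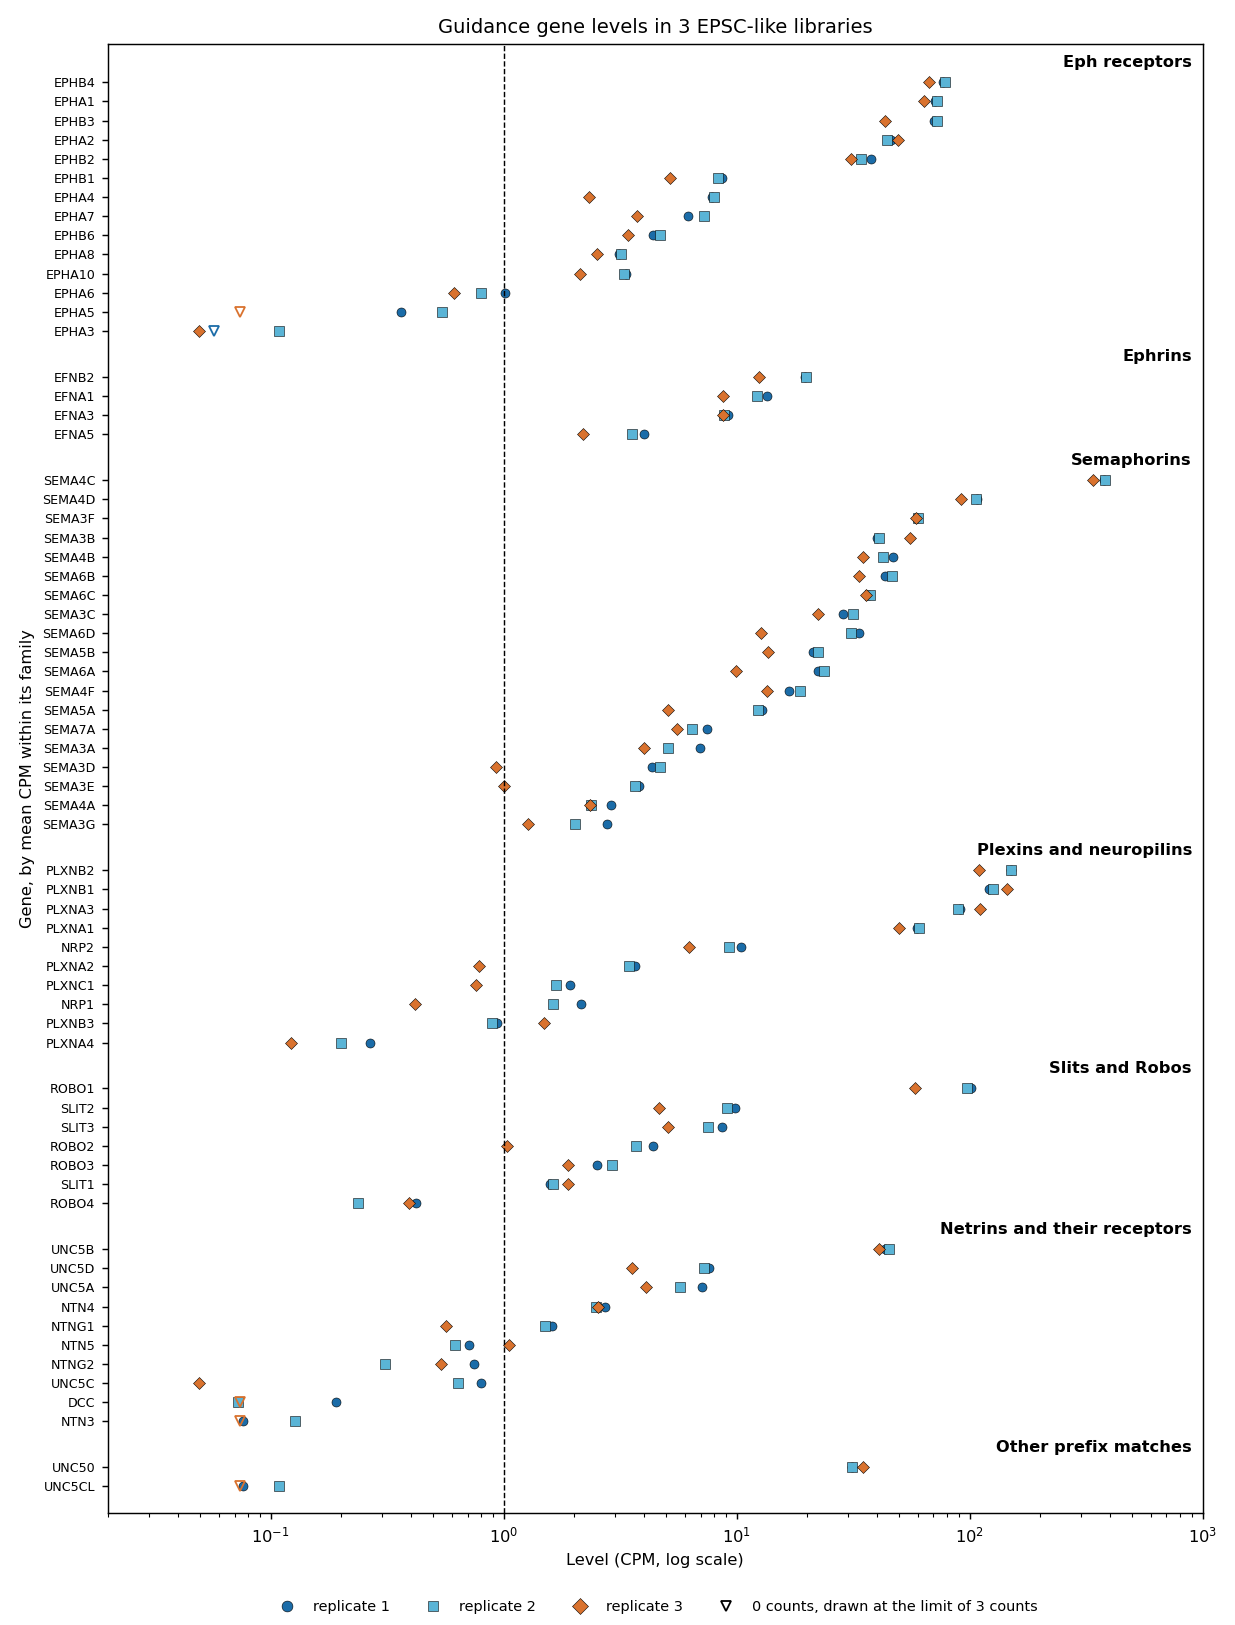
Level of each of the 66 genes in CPM on a log scale, with 1 point per library, grouped by family and ordered by mean CPM within the family. The dashed line marks 1 CPM, and open triangles stand for 0 counts at the limit of 3 counts. All 19 semaphorins and 4 ephrins have means above the line, while EPHA3, EPHA5, ROBO4, PLXNA4, DCC, UNC5C, NTN3, NTNG2 and UNC5CL lie below it in all 3 libraries.

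**Figure D2:**
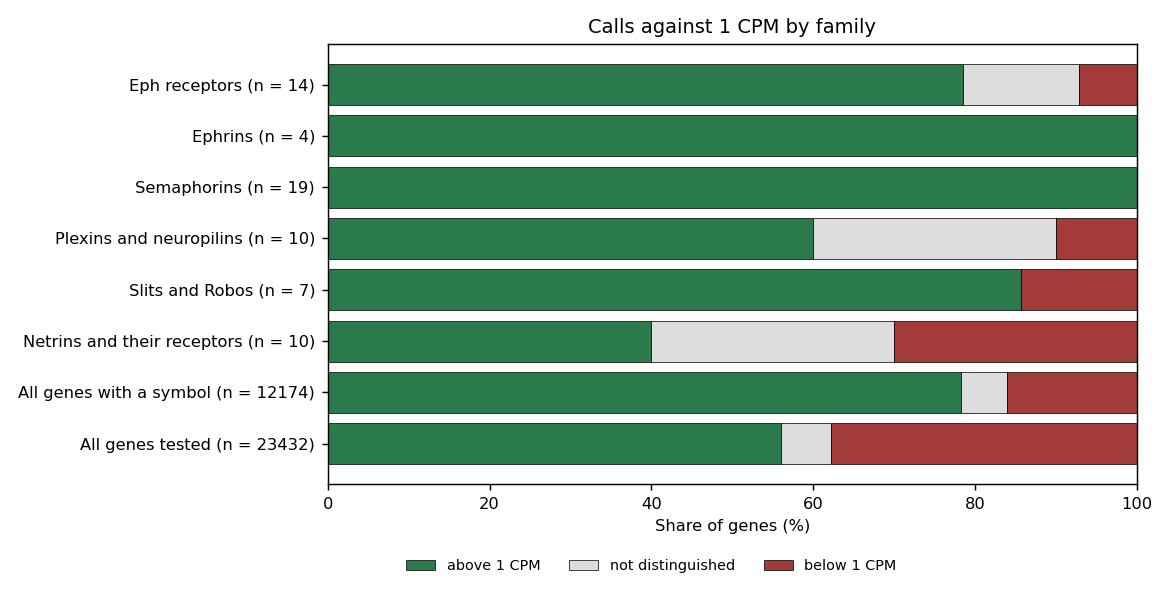
Share of genes (%) called above 1 CPM, not distinguished from it or called below it, in each guidance family, beside tested genes with a symbol and all tested genes. The share above the level runs from 40.0% of the 10 netrin family genes to 100% of the 19 semaphorins and 4 ephrins, against 78.3% of genes with a symbol.

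Among Eph receptors, 11 of 14 (78.6%) were above 1 CPM, close to the 78.3% of all tested genes with a symbol. All 5 EPHB genes were among the 11. EPHB4, the receptor that prefers ephrin-B2, drew the most reads, at 76.8, 78.6 and 67.2 CPM in replicates 1, 2 and 3 (74.2 ± 6.14 CPM, SD, n = 3, adjusted p against 1 CPM = 1.85e-12). EPHA1, known from epithelia, followed at 70.8, 72.6 and 63.8 CPM. EPHB3, which takes part in cell sorting in the intestine, stood at 70.4, 72.2 and 43.4 CPM. The first 2 libraries were alike for these genes and replicate 3 was the lowest. EPHA2, the receptor of ephrin-A1, had 45.8, 44.4 and 49.4 CPM and was thus highest in replicate 3. EPHB2 had 37.6, 34.1 and 31.05 CPM. EPHB4 drew more reads than EPHA1 in each of the 3 libraries, with means of 74.2 ± 6.14 and 69.1 ± 4.63 CPM, and the difference was not tested.

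A second set of Eph genes drew fewer reads. EPHB1, EPHA4, EPHA7, EPHB6, EPHA8 and EPHA10 were above 1 CPM with means from 2.92 ± 0.680 CPM (EPHA10) to 7.38 ± 1.91 CPM (EPHB1). EPHB6 and EPHA10 encode receptors without kinase activity. The others of the EPHA class were scarce. EPHA6, with 53, 44 and 25 counts, had no call (adjusted p = 0.259). EPHA5, with 19, 30 and 0 counts, was not called either (adjusted p = 0.0656). It was below the level by DESeq2 (adjusted p = 0.0398), with replicates 1 and 2 summed (adjusted p = 0.00236) and in each fit that left out 1 replicate (adjusted p from 0.000278 to 0.00835). The fits with summed or omitted replicates take the spread of each gene from the trend alone. Their p-values are thus too small for a gene as variable as EPHA5. EPHA3 had 0, 6 and 2 counts and was the lowest of the family, below 1 CPM (adjusted p = 0.00615). Summed over each class, EPHB genes stood at 198, 198 and 150.3 CPM and EPHA genes at 138, 140.2 and 125 CPM.

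All 4 ephrins that had a row were above 1 CPM, beside 78.3% of all tested genes with a symbol. EFNB2, whose product crosses the membrane and can itself signal, had 19.6, 19.9 and 12.48 CPM (17.3 ± 4.21 CPM, adjusted p = 4.64e-09). Of the ephrin-A genes, whose products are held by a lipid anchor, EFNA1 had 13.5, 12.2 and 8.71 CPM and EFNA3 had 9.18, 8.82 and 8.71 CPM. EFNA5 was the lowest at 3.995, 3.56 and 2.18 CPM. Replicate 3 was lowest for all 4, and for EFNA3 the SD over the 3 libraries was 0.245 CPM. Ligands and receptors of both the ephrin-A and the ephrin-B systems were read in these libraries: 3 EFNA genes with 6 of 9 EPHA genes above 1 CPM, and EFNB2 with all 5 EPHB genes and EPHA4, a receptor for both classes. The row for EFNA1 may hold reads of SLC50A1 and that for EPHA1 reads of ZYX, since these genes overlap in the RefSeq annotation and the strand setting of the counting is not given in the sources used here.

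All 19 semaphorins were above 1 CPM, beside 78.3% of all tested genes with a symbol. SEMA4C drew the most reads of any guidance gene, at 379, 382 and 337 CPM (366 ± 25.3 CPM, SD, n = 3, adjusted p = 2.85e-14). It encodes a membrane-bound ligand of plexin-B2 and took 20.02%, 20.2% and 21.1% of the summed CPM of the 64 guidance genes. SEMA4D, the ligand of plexin-B1, had 107, 107 and 92.0 CPM. The secreted SEMA3F, which works through neuropilin-2, had 59.7, 60.0 and 58.8 CPM and was the most even of the larger members, with an SD of 0.588 CPM. SEMA3B, another secreted member, had 39.9, 41.0 and 55.6 CPM, with replicate 3 the highest.

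The remaining semaphorins spread over a wide range. SEMA4B, SEMA6B, SEMA6C, SEMA3C, SEMA6D, SEMA5B, SEMA6A, SEMA4F and SEMA5A had means from 10.1 ± 4.38 CPM (SEMA5A) to 41.5 ± 5.995 CPM (SEMA4B). SEMA7A, which is lipid-anchored and binds plexin-C1 and integrins, stood at 6.49 ± 0.935 CPM. SEMA3A, the classic repellent that acts through neuropilin-1, had 6.98, 5.09 and 4.02 CPM. SEMA3D, SEMA3E and SEMA4A lay between it and SEMA3G, with means from 2.54 ± 0.299 to 3.32 ± 2.08 CPM. The lowest was SEMA3G at 2.79, 2.02 and 1.28 CPM (adjusted p = 0.00329), which is still above the level. By class, the 5 SEMA4 genes summed to 553, 553 and 479.9 CPM, the 7 SEMA3 genes to 146, 148 and 144 CPM and the 4 SEMA6 genes to 136, 138.5 and 92.2 CPM. The SEMA3 sum was alike in the 3 libraries although its members were not, with SEMA3B higher and 5 of the 7 lower in replicate 3 than in both other libraries.

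Plexins were split between 4 genes with many reads and 4 with few. PLXNB2, the receptor of SEMA4C, had 150.3, 151 and 109 CPM (137 ± 23.8 CPM, adjusted p = 1.40e-12). PLXNB1, the receptor of SEMA4D, had 121, 126 and 144 CPM, and PLXNA3 had 91.2, 89.5 and 110.5 CPM. Replicate 3 was the lowest for PLXNB2 and the highest for PLXNB1 and PLXNA3. The means of PLXNB2 and PLXNB1 (131 ± 12.0 CPM) overlapped within their SDs. PLXNA1, a partner of neuropilins and a receptor of SEMA6D, had 59.2, 60.5 and 49.6 CPM. Far fewer reads came from PLXNA2, at 3.65, 3.46 and 0.785 CPM, and from PLXNC1, the receptor of SEMA7A, at 1.93, 1.67 and 0.760 CPM. PLXNB3, which binds SEMA5A, had 0.937, 0.891 and 1.496 CPM and PLXNA4 had 14, 11 and 5 counts. PLXNA2 was above 1 CPM, PLXNC1 and PLXNB3 were called on neither side (adjusted p = 0.0778 and 0.565) and PLXNA4 was below it (adjusted p = 0.00279). Without replicate 3, PLXNC1 was above the level (adjusted p = 9.62e-09, in a fit on 2 libraries that takes the spread of each gene from the trend alone).

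The neuropilins, which most secreted semaphorins need beside a plexin, were unequal. SEMA3E is an exception, since its product can bind plexin-D1 directly. NRP2 had 10.475, 9.29 and 6.28 CPM and was above 1 CPM (adjusted p = 1.05e-07). NRP1 had 2.14, 1.64 and 0.417 CPM and was not distinguished from 1 CPM (adjusted p = 0.229). Without replicate 3 it was above the level (adjusted p = 2.06e-10, again with the spread from the trend). Among secreted ligands, SEMA3F, which prefers neuropilin-2, thus stood beside a partner above the level in all 3 libraries, and SEMA3A, which prefers neuropilin-1, beside a partner under 1 CPM in replicate 3.

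Of the Slit and Robo genes, 6 of 7 (85.7%) were above 1 CPM, beside 78.3% of all tested genes with a symbol. ROBO1 drew most of their reads, at 101, 97.7 and 58.2 CPM (85.7 ± 23.9 CPM, adjusted p = 3.35e-11). Its ligand genes SLIT2 and SLIT3 had 9.81, 9.13 and 4.66 CPM and 8.66, 7.51 and 5.08 CPM. For all 3 genes replicate 3 was the lowest. SLIT1 had 1.59, 1.64 and 1.89 CPM and did not differ between libraries in any pair by the exact test described below. ROBO2 had 4.38, 3.69 and 1.03 CPM and ROBO3, a divergent member that in mammals binds Slits poorly, had 2.52, 2.91 and 1.89 CPM. ROBO4, known from endothelium, had 22, 13 and 16 counts and was below 1 CPM (adjusted p = 0.00489).

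The netrin family held the most genes near or under 1 CPM: 4 of 10 were above, 3 below and 3 not distinguished. Of all tested genes with a symbol, 78.3% were above and 16.1% below. UNC5B, a repulsive netrin receptor known from vessels, had 43.4, 45.2 and 40.9 CPM (43.1 ± 2.15 CPM, adjusted p = 7.46e-12) and its SD was small beside its mean. UNC5D had 7.59, 7.27 and 3.56 CPM and UNC5A had 7.09, 5.69 and 4.10 CPM, with replicate 3 the lowest for both. UNC5C, with 42, 35 and 2 counts, was on neither side of the level in the fit on 3 libraries (adjusted p = 0.141). It was below the level when replicates 1 and 2 were summed and in each fit on 2 libraries, where its log2 level ran from −1.51 to −0.48. These fits again took the spread from the trend alone, so their p-values are too small for so variable a gene.

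DCC, the receptor that mediates attraction to netrin-1, had 10, 4 and 0 counts and was below 1 CPM (adjusted p = 0.00996). Neogenin (NEO1), a relative of DCC that is not in the symbol rule and was singled out after its values were seen, had 120.4, 118 and 57.3 CPM. Of the netrin genes, NTN4, whose product binds laminins of basement membranes, was above 1 CPM at 2.71, 2.49 and 2.55 CPM. NTN5, at 0.707, 0.618 and 1.05 CPM, and NTNG1, at 1.61, 1.51 and 0.564 CPM, were called on neither side (adjusted p = 0.224 and 0.341). Netrin-G products such as that of NTNG1 are lipid-anchored and do not act through DCC. Without replicate 3, NTN5 was below the level (adjusted p = 0.0170) and NTNG1 above it (adjusted p = 5.31e-05), again with the spread from the trend. NTN3, with 4, 7 and 0 counts, and NTNG2, with 39, 17 and 22 counts, were below it, and the call for NTNG2 was lost without replicate 2 (adjusted p = 0.169). In the RefSeq annotation NTN3, NTN5, NTNG1 and UNC5A overlap TBC1D24, FUT2, PRMT6 and HK3, so their counts are uncertain. PLXNB1 and SEMA6C each overlap a protein-coding gene without a name. Counting annotated genes of every kind, 27 of the 66 overlap another gene, and 8 overlap a protein-coding one. SEMA4D, SLIT3, NRP1, PLXNA2, ROBO2, SEMA3D, SEMA6D and UNC5D overlap only genes that are not protein-coding, and their counts are uncertain too.

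Among the genes that had a row, ligand and receptor genes drew nearly equal totals. The family members without a row are all ligands except PLXND1, so the ligand total is the less complete. SEMA4C alone had a mean of 366 CPM, beside a mean ligand total of 895 CPM. The 31 ligand genes summed to 949, 948 and 789 CPM and the 33 receptor genes to 945, 945 and 808 CPM in replicates 1, 2 and 3. Among ligands 27 (87.1%) were above 1 CPM and 2 (6.45%) below. Among receptors 23 (69.7%) were above and 4 (12.1%) below, beside 78.3% and 16.1% of all tested genes with a symbol. Semaphorins made up 46.3%, 46.5% and 46.4% of the summed CPM of the 64 guidance genes, plexins and neuropilins 23.3%, 23.4% and 26.5%, and Eph receptors 17.8%, 17.9% and 17.2%. The share of Slits and Robos was 6.79%, 6.48% and 4.58%. These are shares of reads and carry the lengths of the genes.

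**Figure D3:**
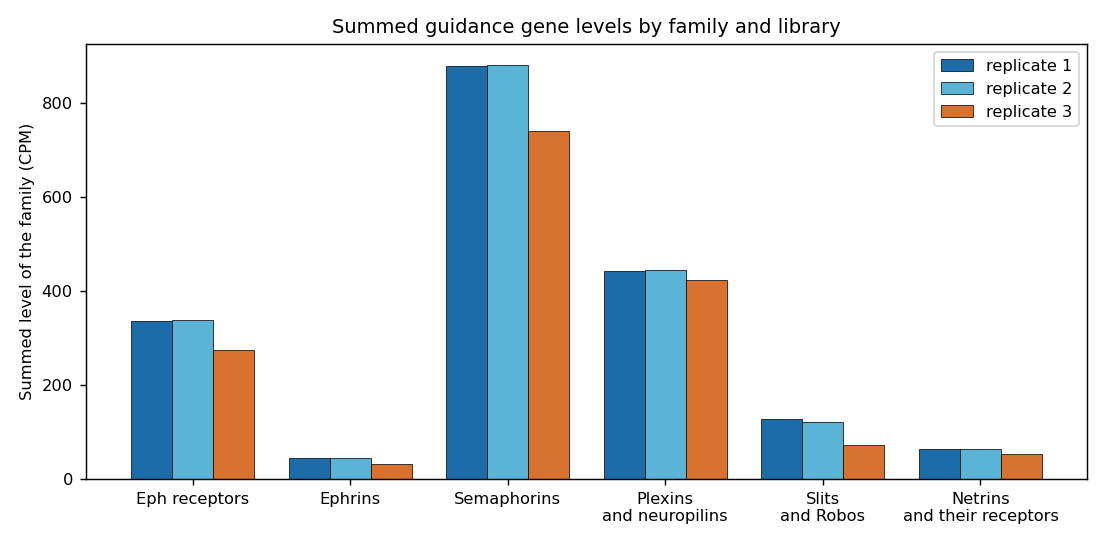
Summed level (CPM) of each family in each of the 3 libraries, with 1 bar per library. The semaphorin sum is 877, 880.2 and 740.4 CPM and the plexin and neuropilin sum 442, 444 and 423 CPM in replicates 1, 2 and 3, and the Slit and Robo sum is 129, 123 and 73.1 CPM.

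Of the other genes of guidance signalling, taken from a list of receptors, kinases, adaptors and cytoskeletal effectors without members of the families above, 55 of the 58 that had a row (94.8%) were above 1 CPM, beside 78.3% of all tested genes with a symbol. The median level of this list was 5.36 on the log2 scale relative to 1 CPM. ENAH, which promotes actin filament growth downstream of guidance receptors, had 605 ± 103 CPM, the receptor kinase gene ERBB2, whose product partners plexin-B receptors, 372 ± 43.6 CPM and the collapsin response mediator gene DPYSL3 297 ± 67.4 CPM (SD, n = 3). DSCAM, with 0, 4 and 0 counts, was below 1 CPM. SRGAP3, an effector of Robo receptors, and the adhesion gene NRCAM could not be placed on either side, with 68, 50 and 34 counts and 73, 70 and 36 counts.

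Differences between libraries were tested for each gene with an exact binomial test conditional on the summed counts, which compares 2 libraries within counting error and says nothing about conditions. Between replicates 1 and 2, 5 of the 66 genes differed: EPHB2, NTNG2, SEMA4B and SEMA3A were lower and SEMA3C was higher in replicate 2 (background 3.31% lower and 3.93% higher of 22502 genes tested). Replicate 3 was lower than replicate 1 in 42 genes and higher in 6, where the background was 25.8% lower and 21.8% higher of all 22703 genes tested. It was lower than replicate 2 in 43 genes and higher in 6, with a background of 26.1% and 22.0% of 22686 genes. For the 9825 genes with a symbol that averaged 1 CPM or more, the background was 4.62% lower and 6.09% higher in replicate 2 than in replicate 1, 44.5% lower and 28.1% higher in replicate 3 than in replicate 1, and 45.1% lower and 28.1% higher in replicate 3 than in replicate 2. Of these genes, 41.3% were lower in replicate 3 than in both other libraries and 24.8% higher. Of the 55 rule genes at that mean, 38 (69.1%) were lower than in both and 6 (10.9%) higher. Their median log2 ratio was −0.46 against replicate 1 and −0.47 against replicate 2, where all genes with a symbol at that mean had medians of −0.10 and −0.10. Levels in bulk RNA do not tell fewer cells of a type from less RNA per cell.

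Replicate 3 was at least 2-fold lower than both other libraries in 12 of the 55 genes that averaged 50 counts or more (21.8%), a change seen in 4.74% of the 9819 genes with a symbol at that depth, and no gene was 2-fold higher (0.275%). Among the 12 were 6 ligands, SEMA6D, SEMA6A, SEMA5A, SEMA3D, SEMA3E and NTNG1, and 6 receptors, EPHA4, ROBO2, UNC5D, PLXNA2, PLXNC1 and NRP1. Their ratios of replicate 3 to replicate 1 ran from 0.195 to 0.469, and to replicate 2 from 0.199 to 0.489.

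SEMA3D had 227, 258 and 38 counts, and its level in replicate 3 was 0.215 of that in replicate 1 (95% interval 0.148 to 0.304) and 0.199 of that in replicate 2 (0.137 to 0.280, exact adjusted p = 1.69e-27). SEMA3E had 199, 201 and 41 counts, with ratios of 0.264 and 0.275. PLXNA2 had 191, 190 and 32 counts, with ratios of 0.215 (0.143 to 0.314) and 0.227. For these genes the first 2 libraries lay close together and replicate 3 far below. ROBO2 had 229, 203 and 42 counts and NRP1 112, 90 and 17 counts, with ratios to replicate 1 of 0.235 and 0.195. EPHA4 had 410, 439 and 95 counts and ratios of 0.297 and 0.292. The transmembrane semaphorin genes SEMA6D, SEMA6A and SEMA5A had 518, 405 and 206 counts in replicate 3, against 1753, 1166 and 675 in replicate 1, and ratios of 0.379, 0.446 and 0.392.

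Among genes with few counts, UNC5C was lower in replicate 3 than in replicate 1, with 2 counts there and a ratio of 0.0611 (0.00716 to 0.235). EPHA5 had no counts in replicate 3. Taking its 19 and 30 counts as they stand, it was at least 4.94-fold higher in replicate 1 and at least 7.42-fold higher in replicate 2 than the limit of 3 counts. With the counting error of both libraries, the exact 95% intervals of these ratios began at 3.64 and 5.67. The genes higher in replicate 3 than in both other libraries were PLXNB3, SEMA3B, PLXNA3, PLXNB1 and EPHA2, besides UNC50. Their ratios ran from 1.08 to 1.60 against replicate 1. EFNA3, SEMA3F, SEMA6C, NTN4 and SLIT1 differed from neither library by the exact test. UNC5B was lower in replicate 3 than in replicate 2, with a ratio of 0.905 (exact adjusted p = 0.00440), and no difference from replicate 1 was called, with replicate 1 at 1.06 times replicate 3 (95% interval 0.996 to 1.13).

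**Figure D4:**
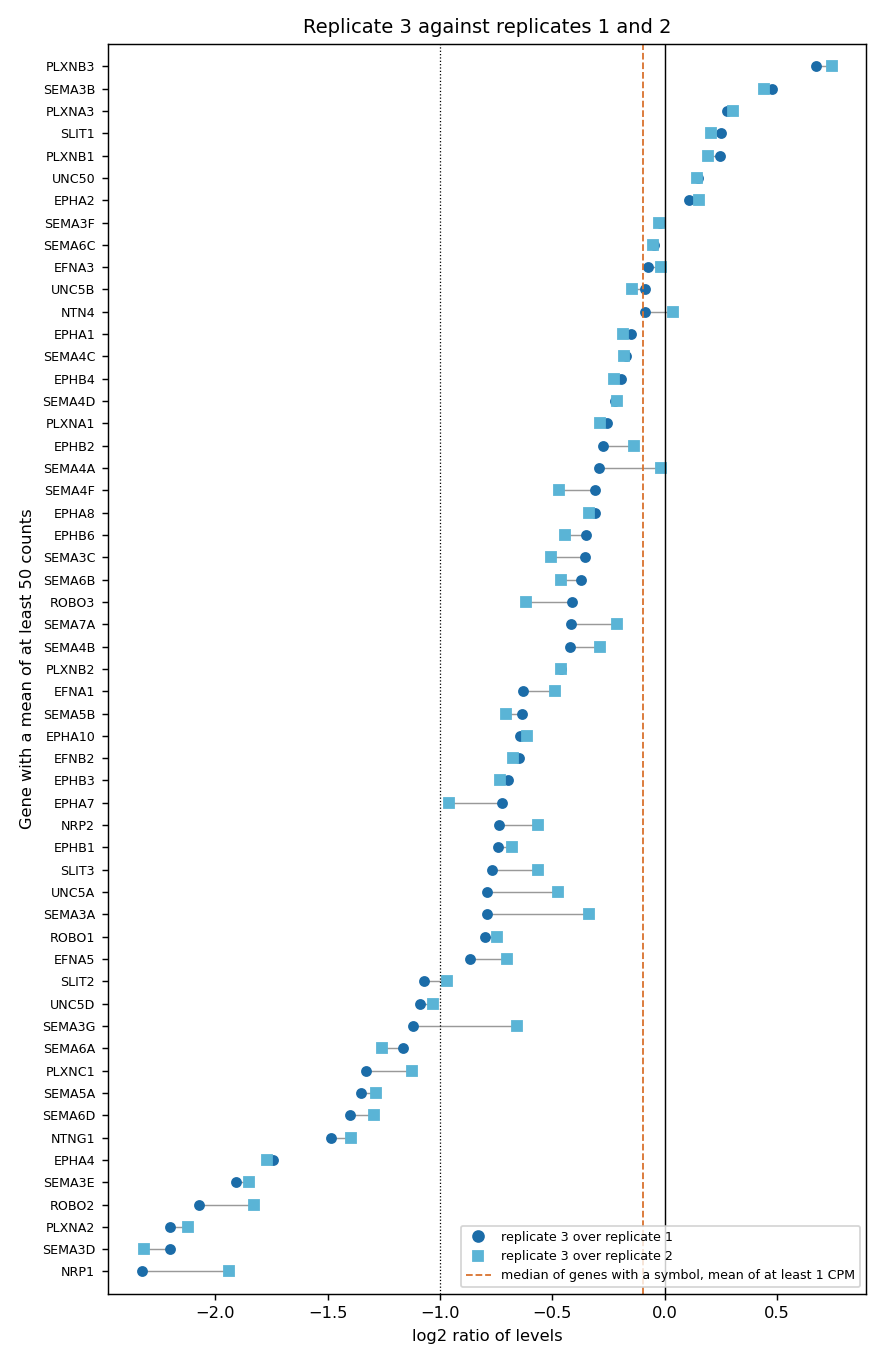
Log2 ratio of the level in replicate 3 to that in replicate 1 (circles) and replicate 2 (squares) for the 55 genes averaging 50 counts or more. The dotted line marks a 2-fold lower level and the dashed line the median of genes with a symbol and a mean of at least 1 CPM. NRP1, SEMA3D, PLXNA2, ROBO2 and SEMA3E lie furthest to the left, and PLXNB3 and SEMA3B furthest to the right.

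The balance between some close relatives differed between the libraries. Within 1 library the ratio of counts of 2 genes also depends on their lengths. How far length and RNA quality enter the change of that ratio between libraries was not tested. These pairs were chosen after their values were seen. PLXNA3 had 25.0 and 25.9 times the counts of PLXNA2 in replicates 1 and 2 and 141 times in replicate 3 (95% interval 99.6 to 206). SEMA3B had 9.20, 8.74 and 59.7 times the counts of SEMA3D. EPHA2 had 5.85, 5.56 and 21.2 times the counts of EPHA4, and ROBO1 had 23.1, 26.5 and 56.5 times those of ROBO2. NRP2 had 4.89, 5.68 and 15.1 times the counts of NRP1, and UNC5B 5.72, 6.21 and 11.5 times those of UNC5D. PLXNB1 had 0.808 and 0.837 times the counts of PLXNB2 in replicates 1 and 2 and 1.32 times in replicate 3, so the order of these 2 genes turned over. In 7 of the 8 pairs plotted the gene in the denominator is 1 of the 12 genes that were at least 2-fold lower in replicate 3, so a higher ratio there follows from the choice and is given as a description.

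**Figure D5:**
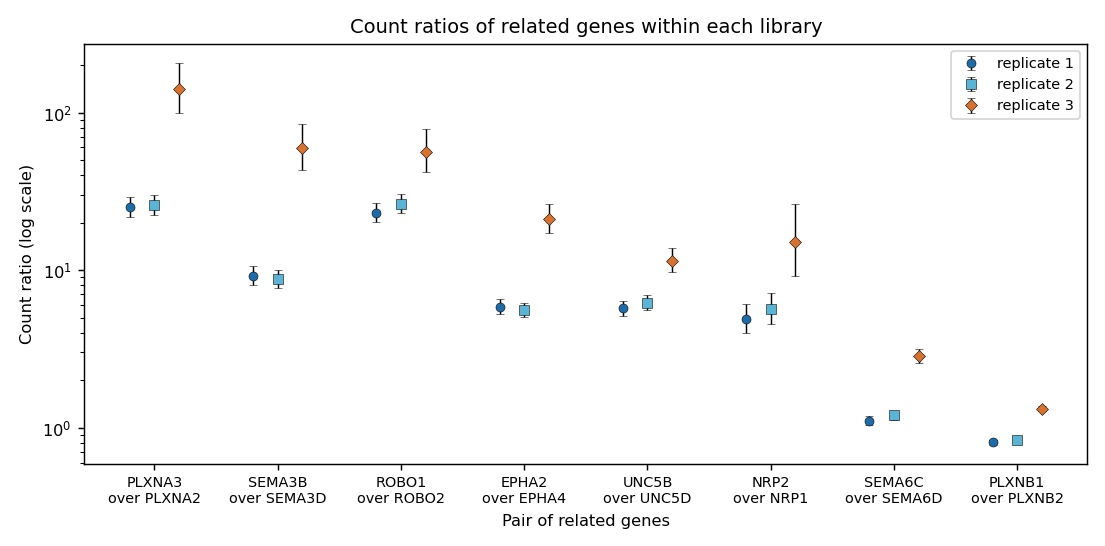
Count ratio of 8 pairs of related guidance genes in each library on a log scale, with exact 95% intervals for counting error. The ratio of PLXNA3 to PLXNA2 is 25.0 and 25.9 in replicates 1 and 2 and 141 in replicate 3.

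Markers of other cell types moved between the libraries too. The 7 mesenchyme and fibroblast markers that had a row were all above 1 CPM, beside 78.3% of all tested genes with a symbol. All 7 were lower in replicate 3 than in both other libraries, with summed levels of 691, 648 and 482 CPM. Of 6 endoderm markers 3 were lower there, with sums of 15.6, 18.5 and 6.67 CPM and AFP at 0 counts in all 3 libraries. Trophoblast markers summed to 20.6, 20.9 and 12.3 CPM, with 2 of 4 lower and 1 higher. Of 8 endothelial markers 6 (75%) were above 1 CPM, a share near the 78.3% of all tested genes with a symbol. PECAM1 at 101 ± 30.5 CPM and KDR at 28.7 CPM on average were the highest, and CDH5 and TIE1 were below 1 CPM. The summed levels of the 8 were 159, 165 and 109 CPM, and PECAM1 alone was lower in replicate 3 than in both other libraries. Neuron markers summed to 314, 324 and 357 CPM, with 1 of 9 lower and 3 higher. The 5 neural progenitor markers summed to 6.94, 6.31 and 7.14 CPM and the 2 leukocyte markers to 0.229, 0.382 and 0.147 CPM, with none lower or higher. Of the 8 pluripotency markers 4 were lower (LIN28A, LIN28B, PRDM14 and SALL4) and 3 higher (POU5F1, NANOG and DNMT3B), with sums of 5827, 6032 and 5495 CPM. The part of these cell types, and of library quality, in the differences of guidance genes was not tested. The other genes of guidance signalling differed in the same direction more often than not. Of the 58, 37 (63.8%) were lower and 4 higher in replicate 3 than in both other libraries. The 41.3% and 24.8% beside them are of genes with a symbol and a mean of at least 1 CPM, a filter not applied to the 58.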

How the data were processed

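The authors deposited raw counts of reads, whole numbers listed by Ensembl gene ID, in a file for each library. The submitters' processing notes name featureCounts 1.5.2 and STAR 2.5.3a, and Trim Galore 0.4.0 for trimming. The sources used here give no genome build, annotation, strand setting or treatment of shared reads, so overlapping, antisense and near-identical genes are uncertain. Symbols came from a table of gene IDs. Overlaps came from the RefSeq annotation calJac240_pri, which may differ from the one counted.

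Counts were scaled with TMM (edgeR 4.0.16, limma 3.58.1, R 4.3.3). All 23432 genes that had any count were set against a level of 1 CPM, two-sided, in an intercept-only quasi-likelihood fit of edgeR whose F statistic was taken from glmQLFit deviances because glmQLFTest takes no model of 1 column. DESeq2 1.42.0 was an alternative. Library pairs were compared by an exact conditional binomial test, two-sided. Both used Benjamini-Hochberg adjustment over all genes tested, at 0.05. Intervals and limits cover counting error only, as the reads carry no molecular identifiers. Both tests were tried on simulated counts. For the level test all genes had the same dispersion, and for library pairs the counts held counting error only. Neither simulation copied the wider spread of replicate 3, so they do not show how the tests behave there.

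The members and lists were chosen with earlier results of these data known. Values per library are given for the 3 genes of highest mean CPM and the lowest in each family, genes at least 2-fold apart in replicate 3 with a mean of at least 50 counts, and genes whose call changed under an alternative. Outside this rule, EPHA2, EPHB2, EPHA6, SEMA3A, SEMA3B, PLXNA1, PLXNB3, NRP2, SLIT1, ROBO3, NTN4 and DCC were added after their values were seen. Of the signalling list, the 3 highest and those not above 1 CPM are named. The planned order of genes by CPM per coding length was not made, as no coding lengths were used here, and no sequences are shown.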

Additional observations from a re-analysis of the deposited data

How the results depend on the processing

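The counts of genes above 1 CPM (51) and below it (7) stayed within 1.5 times under other scaling, a minimum of 10 counts, DESeq2, summed replicates 1 and 2, omission of UNC50 and UNC5CL, and omission of each replicate (51 to 54 above, 8 to 10 below). At a level of 2 CPM, 12 were below. Of 527 log2 levels recomputed, 512 kept direction and side, 13 passed the threshold newly, 1 no longer passed and 1 reversed: PLXNB3, which ran from −0.13 without replicate 3 to 0.28 without replicate 2 and passed the threshold in no fit. The cause was not tested. Fits on 2 libraries had infinite prior degrees of freedom, so their p-values are too small for variable genes. Between replicates 1 and 2, 5 genes differed, 0 with counts halved and 1 with at least 1.5-fold required. With 1.5-fold required, 31 differed between replicates 3 and 1 and 26 between replicates 3 and 2, in place of 48 and 49. All 21 family sums moved by less than 1 SD with median-of-ratios factors. No paired analysis was possible because all libraries form 1 group. The order of genes per coding length was not run. Depth limits what can be said of genes near 3 counts.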
